A study of Rattus norvegicus with 150 samples.

Results

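Skeletal muscle of rats carrying depleted uranium (DU) was compared with that of rats carrying nickel (Ni) 3 months after the metals were implanted. The comparison used 15 of the study's 150 RNA-seq libraries, 7 of DU (replicates 1 and 3 to 8) and all 8 of Ni. Replicate 2 of DU was left out by the rule that set the comparison, which judged that it did not look like skeletal muscle. All libraries came from the gastrocnemius, the large muscle of the calf, of male Sprague-Dawley rats that were about 30 days old when bought. The rats were acclimated for at least 2 weeks, and those sampled at later months were also older. Every rat, the controls included, carried 4 small metal cylinders, 2 in each limb. Tantalum (Ta) served as the sham metal, and cobalt (Co) and a metal labelled P were the other 3 month groups. The labels gave no genotype or agent other than the metal, and did not tie a library to a rat, so p-values measured the spread between libraries. Genes are given by Ensembl identifier, since the tables used here did not pair these identifiers with names. The muscle label could therefore not be set against marker genes.

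Depleted uranium is a dense, weakly radioactive heavy metal whose chemical toxicity is best known in the kidney. Nickel is a transition metal known as a contact allergen, and its ions, like those of cobalt, stabilise the hypoxia-inducible transcription factors. Nickel implanted in rat muscle is also known to give rise to sarcomas. Embedded fragments corrode in tissue and meet a foreign body response in which macrophages and fibroblasts wall them off, while tantalum is regarded as close to inert. A muscle sample around such a fragment can hold muscle fibres, immune cells and connective tissue. In bulk RNA, fewer cells of a type and less RNA per cell cannot be told apart.

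The DU library that was left out had a median correlation of 0.531 with the others of its group, against 0.939 to 0.972 among the 7 that were kept and 0.953 to 0.964 among the Ni libraries. A set of 278 genes was abundant in it, at 100 CPM (counts scaled to a common library total) or more, and had a median under 1 CPM over the 134 libraries outside these 2 groups. Those genes took 41.9% of its counts. In the DU libraries that were kept they took 0.00262% in replicate 1, 1.44% in replicate 3, 0.14% in replicate 4, 0.0728% in replicate 5, 0.124% in replicate 6, 0.0766% in replicate 7 and 0.0297% in replicate 8. In Ni they took 0.00254% to 0.0088%, with a median of 0.00345%. Of the DU libraries, 6 of 7 thus lay above every Ni library, and replicate 1 lay within the Ni range. In Ta at 3 months the share was 0.00262% to 0.00855%, and in Co it reached 0.107%. In DU replicate 3 the median gene of the 278 stood at 2.58% of its level in the left-out library (quartiles 1.79% and 3.68%). Only 36 of the 278 genes passed the filter on low counts. The part that the left-out library's genes played in the results was not tested, and their values are given beside each result they touch.

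**Figure D1:**
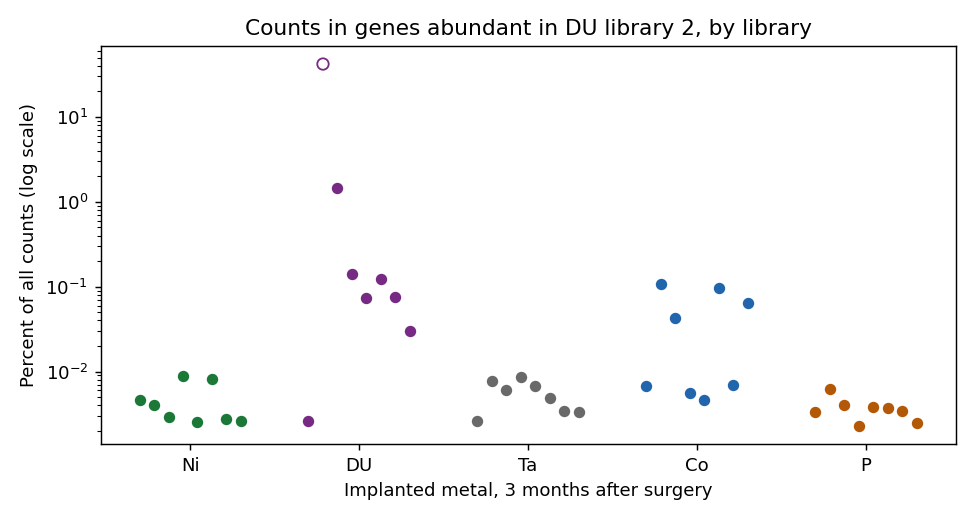
Share of each 3 month library's counts (percent, log scale) in the 278 genes abundant in DU replicate 2, with 1 point per library and an open circle for that library. Among the other DU libraries, 6 of 7 lie above all Ni libraries, with replicate 3 highest at 1.44%.

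The 15 libraries were deep, and DU was sequenced more deeply than Ni. Total counts were 16160763 to 21284133 in DU and 12674115 to 16648269 in Ni, and 11273 to 11888 genes reached 1 CPM in each. Between 26.5% and 40.3% of a DU library and between 23.9% and 32% of an Ni library fell on its 10 top genes. The 40.3% was that of DU replicate 5, where the median of the DU libraries was 27.9%. In a principal component analysis of the 15 libraries the first component held 29.9% of the variance. DU libraries lay between 3.9 and 50.2 on it and Ni libraries between -59.6 and 16.2, so the groups overlapped through Ni replicates 7 and 8 and DU replicates 6 and 7.

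Muscle with DU and muscle with Ni differed at 3 months in 948 of 12240 genes tested (7.75%; edgeR, Benjamini-Hochberg adjusted p under 0.05). With DU 503 genes were higher (4.11%) and 445 lower (3.64%). Most differences were modest, with a median size of 0.60 on the log2 scale among the genes called. Only 77 of the higher and 63 of the lower genes changed by over 2-fold. The median over all genes tested was -0.02. At an unadjusted p under 0.05 there were 3762 genes (30.7%), and the lowest adjusted p of any gene was 0.0266, so the calls lay close to the threshold. The groups did not overlap in 39 of the 503 higher and 54 of the 445 lower genes, while 42 and 54 of all genes tested showed such a separation. The share of genes called was highest at middle abundance. It was 8 of 610 genes under 1 CPM (1.31%), 265 of 5004 from 1 to 10 CPM (5.3%), 598 of 5597 from 10 to 100 CPM (10.7%), 74 of 937 from 100 to 1000 CPM (7.9%) and 3 of 92 above 1000 CPM (3.26%). Among the 100 most abundant genes, 2 were higher and 1 lower with DU, and their median log2 fold change was 0.01.

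The number of calls depended on single libraries. No gene passed without Ni replicate 2, 3 or 4 or without DU replicate 4. There were 10 calls without Ni replicate 1, 14 without DU replicate 3, 120 without DU replicate 1, 218 without DU replicate 8 and 449 without Ni replicate 5. Calls rose to 1462 without Ni replicate 7 and to 2340 without Ni replicate 8. The last 2 were the Ni libraries nearest to DU on the first component. At an unadjusted p under 0.05 these 15 fits gave 3098 to 4385 genes, a narrower range, and their lowest adjusted p lay between 0.0039 and 0.0682. With DU replicate 2 kept, no gene passed (edgeR), though 3005 had an unadjusted p under 0.05.

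**Figure D2:**
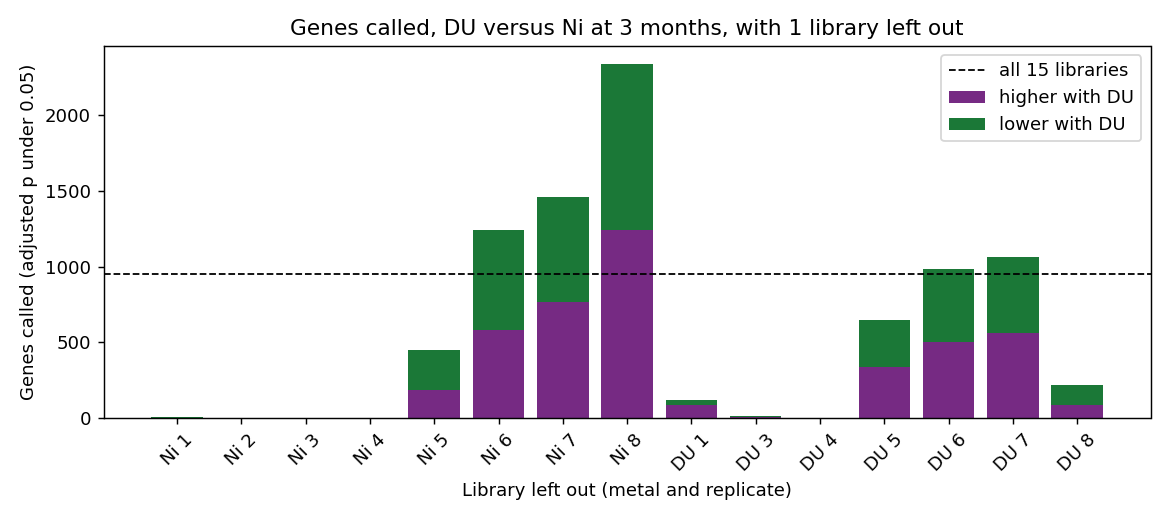
Genes called between DU and Ni at 3 months (stacked bars, higher and lower with DU) when the library named on the x axis is left out, with the dashed line at the 948 calls of all 15 libraries. Counts run from 0 to 2340.

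The called genes were followed library by library as their mean log2 CPM. Since they were chosen for the difference, these values describe it and carry no test. The 503 genes higher with DU averaged 4.55 ± 0.23 in DU and 3.76 ± 0.27 in Ni (SD, n = 7 and 8). The 7 DU libraries lay at 4.29 to 4.99 and the 8 Ni libraries at 3.41 to 4.18, with no overlap. DU replicate 3 was highest and Ni replicate 2 lowest. The 445 genes lower with DU averaged 3.73 ± 0.14 in DU and 4.38 ± 0.22 in Ni (SD, n = 7 and 8), with ranges of 3.59 to 3.93 and 4.10 to 4.70. DU replicate 3 was lowest and Ni replicate 2 highest here, so both ends of the contrast lay in the same 2 libraries. The left-out DU library stood at 4.64 for the first set and at 3.13 for the second.

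The other metals of the same time fell on both sides. For the 503 genes Ta averaged 3.80 ± 0.34, Co 3.80 ± 0.30 and P 4.24 ± 0.21 (SD, n = 8 each). For the 445 genes Ta averaged 4.32 ± 0.32, Co 4.41 ± 0.26 and P 3.88 ± 0.15 (SD, n = 8 each). Ta and Co means were thus near those of Ni, and the P means lay between Ni and DU. At other times both sets of genes stood nearer to each other in the 2 metals. The 503 genes averaged 4.20 ± 0.19 with Ni and 4.22 ± 0.20 with DU at 1 month, and 4.38 ± 0.11 and 4.35 ± 0.16 at 6 months (SD, n = 8 each). The 445 genes averaged 3.93 ± 0.23 and 3.96 ± 0.17 at 1 month and 3.82 ± 0.10 and 3.79 ± 0.25 at 6 months (SD, n = 8 each). Against these levels, DU at 3 months was higher and Ni at 3 months lower for the first set, and the reverse held for the second. Genes chosen for this contrast can show both deviations, so they carry no test. From 3 to 6 months Ta and Co moved as Ni did. The 503 genes averaged 4.41 with Ta and 4.27 with Co at 6 months, and the 445 genes 3.73 and 3.81. With P the 6 month means were 4.44 and 3.71. The 3 month level of Ni was thus not particular to Ni.

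**Figure D3:**
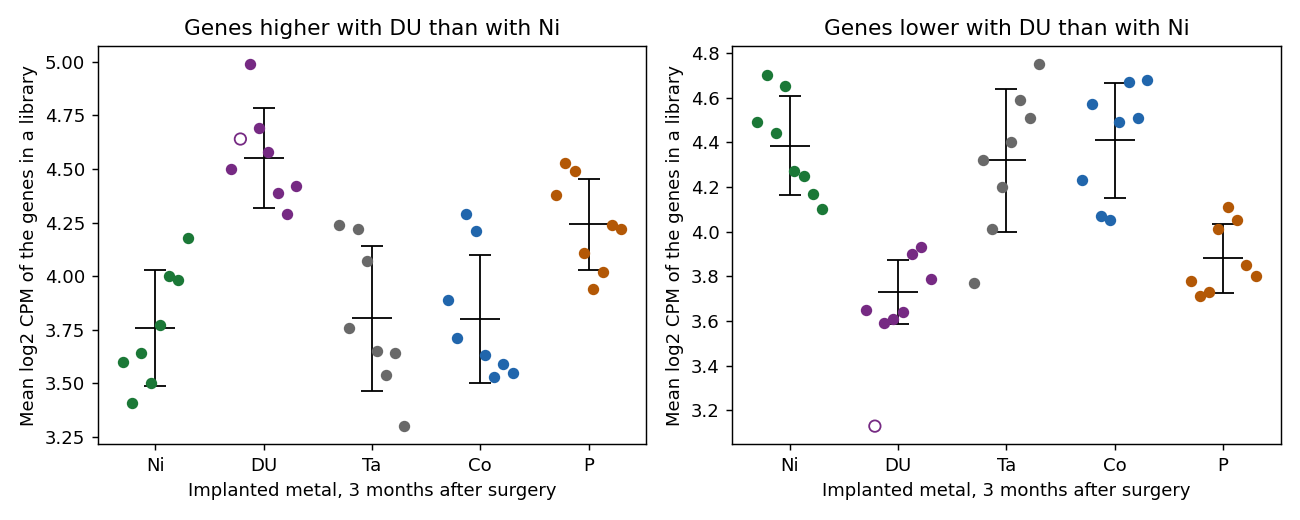
Mean log2 CPM of the 503 genes higher (left) and the 445 genes lower (right) with DU than with Ni at 3 months, 1 point per 3 month library, with mean and SD per metal and the left-out DU library as an open circle outside the mean. Ni and DU do not overlap, and the genes were chosen for that contrast. Ta and Co lie near Ni, and P lies between.

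The largest rises with DU were genes of the left-out library. ENSRNOG00000006709 and ENSRNOG00000018257 had the largest log2 fold changes among 502 rises that met the rule for naming. ENSRNOG00000006709 was at 0.205, 191, 23.9, 11.2, 15.6, 11.4 and 5.78 CPM in DU replicates 1 and 3 to 8, and between 0 and 0.59 CPM in Ni with a median of 0.234 CPM. All DU libraries but replicate 1 lay above every Ni library. Its log2 fold change was 6.98 ± 1.19 (SE, edgeR adjusted p = 0.0317). With 0 to 10 counts in each Ni library, it could pass the filter on low counts mainly through the DU libraries. It stood at 3470 CPM in the left-out library. In the other 17 groups of metal and time its mean was at most 0.544 CPM, as in Ta at 12 months.

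ENSRNOG00000018257 showed the same order of libraries. It was at 0.103, 148, 19.5, 8.25, 13.6, 12.9 and 3.77 CPM in DU replicates 1 and 3 to 8, between 0 and 0.561 CPM in Ni, and at 4750 CPM in the left-out library. Its log2 fold change was 6.69 ± 1.19 (SE, edgeR adjusted p = 0.0317). It too could pass the filter on low counts mainly through the DU libraries. The adjusted p of either gene is thus given as a description and adds no support. Replicate 3 was far above the rest for both genes and replicate 1 was at the Ni level. That is also the order of the share of counts in the 278 genes, to which both genes belong. The call of both genes was lost without Ni replicate 1, 2 or 3 or DU replicate 4, with adjusted p between 0.0542 and 0.0682 (edgeR), and with DU replicate 2 kept (0.0801). Both calls were also lost with limma voom, where the log2 fold changes were 4.83 and 4.73 (adjusted p 0.199 and 0.206). That of ENSRNOG00000018257 was lost with the replicate number as a block too (edgeR adjusted p = 0.19). Neither gene was among those tested without Ni replicate 4, where no gene passed, nor after thinning or with genes above 4-fold or 16-fold in the left-out library removed. ENSRNOG00000006709 also gave no value with the 5 groups of 3 months in 1 model. Over the alternatives that gave a value, the adjusted p of ENSRNOG00000006709 ran from 1.17e-15 to 0.199 and that of ENSRNOG00000018257 from 5.85e-14 to 0.206.

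Called rises were followed over the whole range of this abundance, as the ratio of a gene's CPM in the left-out library to its median outside the 2 groups. Above a ratio of 64, 30 of 151 genes tested were higher with DU (19.9%) and none was lower, and the median log2 fold change of the 151 was 0.92. From 16 to 64, 7 of 262 were higher (2.67%) and none lower, with a median of 0.10. Genes near silent in the other groups could pass the filter on low counts mainly through the DU libraries. The lack of falls and the medians at high ratios may thus be partly set by that filter, and they carry no test. At ratios from 1 to 4, 192 of 3730 were higher (5.15%) and 124 lower (3.32%), and at 0.25 to 1, 182 of 4333 were higher (4.20%) and 195 lower (4.50%). Of the 29 rises with a log2 fold change over 2, 25 had a ratio above 16, against 6 of the 48 rises between 1 and 2, 5 of the 281 between 0.5 and 1 and 1 of the 145 up to 0.5. No called fall had a ratio above 16. Called rises with a ratio up to 16 numbered 466, and their median log2 fold change was 0.58. With all genes above a ratio of 16 removed before the fit, 516 genes were higher and 459 lower with DU, and with those above 4 removed, 533 and 492 were. The number of calls was thus no smaller without those genes.

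The largest falls with DU were genes that a few Ni libraries carried at high levels. ENSRNOG00000048402 was at 6.78, 0.735, 0.524, 620, 34.3, 1.51, 44.5 and 0 CPM in Ni replicates 1 to 8, and between 0.0594 and 2.18 CPM in DU with a median of 0.528 CPM. Ni replicates 1, 4, 5 and 7 lay above every DU library, while the other 4 lay within or below the DU range. Its log2 fold change was -7.01 ± 1.86 (SE, edgeR adjusted p = 0.0412). Without Ni replicate 4 the log2 fold change was -4.12 and the adjusted p 0.085 (edgeR). It averaged 0.407 ± 0.379 CPM in Ta and 2510 ± 3740 CPM in Co at 3 months (SD, n = 8 each), where Co ranged from 19.9 to 11300 CPM. At 6 months DU replicate 8 stood at 46.4 CPM, while Ni reached 1.34 CPM. At 1 month Ni replicate 7 stood at 46.1 CPM. The adjusted p ran from 9.43e-05 to 0.345 over the alternatives, and 16 of them ended the call, those without Ni replicate 1, 2, 3, 4 or 5 or DU replicate 1, 3, 4, 5, 6 or 8 among them.

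ENSRNOG00000049829 was at 14.1, 0.735, 0.786, 275, 19.2, 3.31, 29.4 and 2.45 CPM in Ni replicates 1 to 8, and between 0.356 and 2.29 CPM in DU with a median of 1.08 CPM. All Ni libraries but replicates 2 and 3 lay above every DU library. Its log2 fold change was -5.34 ± 1.36 (SE, edgeR adjusted p = 0.0378), and without Ni replicate 4 it was -3.18 (edgeR adjusted p = 0.0724). It averaged 1.15 ± 0.89 CPM in Ta and 2250 ± 3030 CPM in Co at 3 months (SD, n = 8 each). The same Ni libraries, replicates 1, 4, 5 and 7, were the highest for both falls. At 6 months ENSRNOG00000049829 had a median of 2.19 CPM with Ni (0.623 to 12.7 CPM) and of 2.76 CPM with DU. DU replicate 8 stood at 59.9 CPM there and the other 7 at 1.04 to 4.01 CPM, within the Ni range. Its adjusted p ran from 0.00118 to 0.20 over the alternatives, and 14 of them ended the call, those without Ni replicate 1, 2, 3 or 4 or DU replicate 1, 3, 4, 5 or 8 among them.

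**Figure D4:**
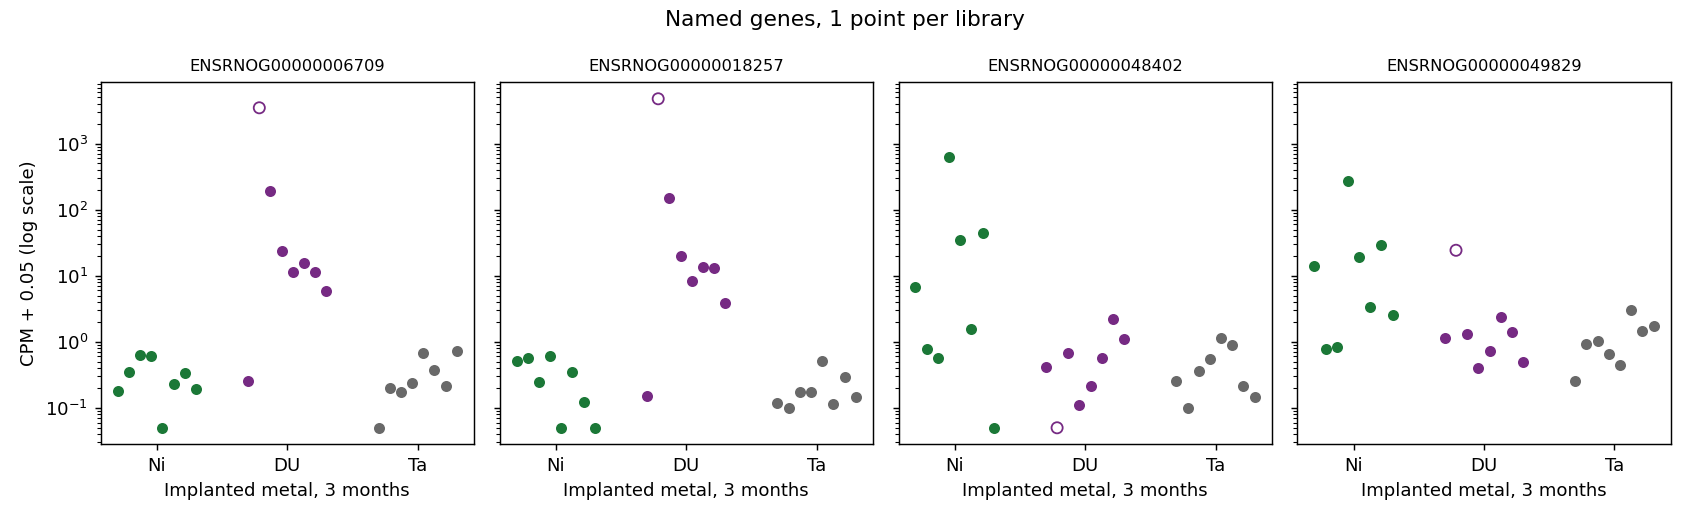
CPM + 0.05 (log scale) of the 2 largest rises and the 2 largest falls with DU, 1 point per library of Ni, DU and Ta at 3 months, with the left-out DU library as an open circle. The rises follow 6 of 7 DU libraries and reach 3470 and 4750 CPM in the left-out library, while the falls reach 620 and 275 CPM in Ni replicate 4.

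The same contrast of DU with Ni was made at 1 and 6 months in libraries that the 3 month comparison does not use. No gene passed at 1 month (0 of 12300, 0%) with edgeR, where 1365 genes (11.1%) had an unadjusted p under 0.05 and DESeq2 called 7. With all libraries in 1 edgeR model 4 genes were higher and 138 lower with DU at 1 month. None passed at 6 months (0 of 12232, 0%) with edgeR, where 977 genes (7.99%) had an unadjusted p under 0.05 and DESeq2 called 13. With limma voom 47 genes were higher and 155 lower with DU at 6 months. Without Ni replicate 2 or 6 the 1 month count was 1 or 2, and without DU replicate 7 or 8 the 6 month count was 1 or 66. The genes called at 3 months showed little of their difference at either time. For the 503 genes the median log2 fold change was 0.00 at 1 month (quartiles -0.16 and 0.16, 491 tested) and -0.02 at 6 months (quartiles -0.10 and 0.05, 494 tested), beside 0.01 and 0.02 over all genes. The 445 genes had medians of 0.03 (quartiles -0.18 and 0.18) and 0.03 (quartiles -0.09 and 0.14), with 441 tested at each time. An unadjusted p under 0.05 was found for 33 of the 491 (6.72%) and 60 of the 441 (13.6%) at 1 month, and for 13 of the 494 (2.63%) and 39 of the 441 (8.84%) at 6 months. The share of genes above 0 was 50.7% and 54.9% at 1 month against 50.9% of all genes, and 44.5% and 55.3% at 6 months against 53.9%.

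**Figure D5:**
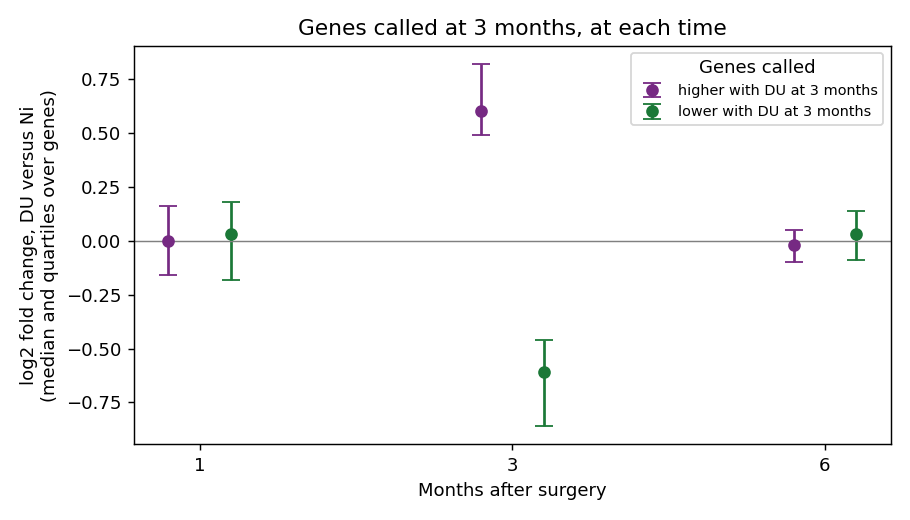
Median and quartiles over genes of the log2 fold change of DU against Ni at 1, 3 and 6 months, for the 503 genes higher and the 445 genes lower with DU at 3 months. The 3 month values are set by the choice of genes; the medians at 1 and 6 months lie between -0.02 and 0.03.

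Whether the difference between DU and Ni itself changed with time was tested by an interaction term. Against 1 month, the difference was more positive at 3 months in 17 of 13000 genes (0.131%) and more negative in none (edgeR). Of the 17, 15 had a ratio above 16 in the left-out library. With such genes removed before the fit, 12513 genes were tested in place of 13000. None of them passed (edgeR, 2758 had an unadjusted p under 0.05). None passed with limma voom either, where 2097 had an unadjusted p under 0.05, while DESeq2 called 95 and the single edgeR model of all libraries 195. Against 6 months, 164 of 12876 genes were more positive (1.27%) and 92 more negative (0.715%), 256 in all (1.99%). Of the 164, 21 had a ratio above 16, and with such genes removed 124 and 93 of 12409 passed. Genes above that ratio could pass the filter on low counts mainly through DU at 3 months. Their share among the calls of either interaction thus carries no test. Without DU replicate 3 at 3 months, 8 and 2 genes passed against 6 months. Without the filter on low counts none passed there (edgeR, lowest adjusted p 0.0548; 4219 had an unadjusted p under 0.05). The count was 74 with all libraries in 1 model, 1004 with DESeq2 and 2192 with limma voom. These interaction tests share the 3 month libraries with the main comparison and are not independent of it.

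Among these calls, 6 genes are given as examples, chosen after their values were seen. They were not higher in the left-out library than the median outside and averaged 1 CPM or more in either metal. Against 6 months, 85 more positive and 47 more negative calls met the first condition. Genes already named aside, the 2 of lowest p in each direction were taken, so they show the extremes. Against 1 month only 2 calls met it, and both are given. ENSRNOG00000050437 averaged 11.7 ± 3.12 CPM in Ni and 21.1 ± 3.67 CPM in DU at 3 months (SD, n = 8 and 7), with Ni at 6.1 to 15.7 CPM and DU at 16.1 to 25.4 CPM. The groups did not overlap. At 6 months it averaged 23.4 ± 3.33 CPM in Ni and 19.7 ± 2.72 CPM in DU (SD, n = 8 each), so the Ni level lay below its 6 month level at 3 months while the DU level did not. The log2 difference changed by 1.09 ± 0.20 between the times (SE, edgeR adjusted p = 0.032). Its means at 3 and 6 months were 14.7 and 20.5 CPM in Ta, 14.7 and 17.6 CPM in Co, and 18 and 23.2 CPM in P. The lower level at 3 months was thus not particular to Ni. ENSRNOG00000007270 averaged 9.77 ± 3.99 CPM in Ni and 17.5 ± 3.94 CPM in DU at 3 months (SD, n = 8 and 7), with ranges of 5.85 to 17.6 and 13.9 to 24.2 CPM that overlapped through Ni replicate 8. At 6 months it averaged 17.8 ± 2.26 and 14 ± 2.25 CPM (SD, n = 8 each), a change of 1.16 ± 0.24 (SE, edgeR adjusted p = 0.037). Its means at 3 and 6 months were 8.14 and 17.8 CPM in Ta and 7.91 and 16.2 CPM in Co. In P they were 15.9 and 15.5 CPM, so Ta and Co shared the low 3 month level of Ni and P did not.

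The examples among the falls ran the other way. ENSRNOG00000006542 averaged 119 ± 14.2 CPM in Ni and 84.9 ± 13.8 CPM in DU at 3 months (SD, n = 8 and 7), with ranges of 99.5 to 138 and 69.9 to 111 CPM. At 6 months it averaged 89 ± 4.88 and 92.2 ± 7.38 CPM (SD, n = 8 each), and the difference changed by -0.55 ± 0.12 (SE, edgeR adjusted p = 0.037). ENSRNOG00000024278 averaged 40 ± 5.62 CPM in Ni and 27.2 ± 5.32 CPM in DU at 3 months (SD, n = 8 and 7), against 28 ± 1.5 and 28.4 ± 1.67 CPM at 6 months (SD, n = 8 each). Its difference changed by -0.59 ± 0.13 (SE, edgeR adjusted p = 0.037). For both genes the Ni mean of 3 months lay further from its 6 month value than the DU mean did. Ta and Co shared this fall from 3 to 6 months, and P changed less. Means of ENSRNOG00000006542 at 3 and 6 months were 120 and 81.4 CPM in Ta, 120 and 82.3 CPM in Co, and 90.4 and 87.1 CPM in P. Those of ENSRNOG00000024278 were 37 and 25.4 CPM in Ta, 34.2 and 29.3 CPM in Co, and 29.7 and 29.3 CPM in P.

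The 2 examples against 1 month belong to the 17 calls, of which none was left with genes above a ratio of 16 removed (lowest adjusted p 0.151, edgeR) or with limma voom (lowest adjusted p 0.14). ENSRNOG00000003541 averaged 5.17 ± 1.67 CPM in Ni and 8.41 ± 1 CPM in DU at 3 months (SD, n = 8 and 7). At 1 month it averaged 8.48 ± 1.85 and 6.77 ± 1.14 CPM (SD, n = 8 each). The log2 difference changed by 1.03 ± 0.22 (SE, edgeR adjusted p = 0.0465). ENSRNOG00000049743 rested on single libraries. It was at 0.667, 0.575, 11.3, 1.18, 0.264, 0.622 and 10.4 CPM in DU replicates 1 and 3 to 8 and at 0.0561 to 0.987 CPM in Ni, and only replicates 4, 5 and 8 of DU lay above every Ni library. At 1 month it averaged 4.16 ± 6.3 CPM in Ni and 0.358 ± 0.224 CPM in DU (SD, n = 8 each), and the difference changed by 6.34 ± 1.30 (SE, edgeR adjusted p = 0.0336). The 1 month medians were close, at 0.394 CPM in Ni, which reached 16.9 CPM, and 0.355 CPM in DU. Groups of other metals spread as widely, such as Ta at 1 month (0.0686 to 19.2 CPM) and P at 3 months (0.345 to 20.5 CPM).

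Each metal was also set beside Ta of the same time. These comparisons share the Ta libraries with each other and the DU or Ni libraries with the main one, so the values stand side by side with no test of likeness. DU differed from Ta in 744 of 12291 genes (6.05%), with 260 higher (2.12%) and 484 lower (3.94%) by edgeR, 59 and 119 of them by over 2-fold. Ni differed from Ta in none of 12114 genes (0%) by edgeR, where 413 (3.41%) had an unadjusted p under 0.05 and DESeq2 called 6. The median log2 fold change of the 503 genes higher with DU than with Ni was 0.54 for DU against Ta (500 tested) and -0.05 for Ni against Ta (487 tested), beside medians of -0.03 and -0.01 over all genes. The 445 lower genes had medians of -0.64 (442 tested) and 0.01 (445 tested). In DU against Ta, 121 of the 500 were called higher and 197 of the 442 lower. The count of DU against Ta was 0 without Ta replicate 2, 5, 6, 7 or 8 or without DU replicate 4 or 5, and 5 without DU replicate 3 or 8. It was 138 without DU replicate 1, 1810 without Ta replicate 3 and 2587 without Ta replicate 1, and 0 with DU replicate 2 kept.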

How the data were processed

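RNA-seq counts of 150 libraries in 19 groups of metal and time were used, and 15 of them made the main comparison. Per the labels' protocols, 1000 ng of RNA went into each stranded library, and lanes of 10 libraries gave paired reads of 100 bases. The authors deposited raw counts for each gene, as whole numbers. According to the submitters' processing notes, HISAT2 2.0.5, featureCounts 1.5.0-p3 and the rat build Rnor_6.0 were used. The annotation release, the strand setting, the lanes and any batches are not given in the sources used here. Reads of overlapping, antisense or near-identical genes may not be separated. Columns were tied to libraries through their labels.

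R 4.3.3, limma 3.58.1 and edgeR 4.0.16 were used. Genes that passed filterByExpr were tested by robust glmQLFit and glmQLFTest with TMM factors, on the libraries of the groups compared, and p-values were adjusted over them by Benjamini-Hochberg. The SE is the log2 fold change over the square root of F. A prior count of 2 went into log2 CPM, and CPM was scaled with TMM factors taken over all libraries. Ratios to the left-out library had 0.1 CPM added to both values. The tests were checked before use on simulated counts of 12128 genes, of which 200 were changed. There edgeR made 169 calls with 8 false, limma voom 164 with 6 false and DESeq2 206 with 35 false. Genes were drawn independently, so the check did not cover variation that many genes of a library share. DESeq2 1.42.0 served as an alternative. No pair of libraries within a group matched within sampling noise (lowest chi-square per degree of freedom 21.1).

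None of the 32545 identifiers matched the reference table of gene names, which held no Ensembl identifier. The gene lists, cell type markers and promoter motifs chosen for this comparison were therefore not used, and no sequence is shown. Named genes are the 2 largest rises and the 2 largest falls that passed at 0.05, averaged 1 CPM or more in either metal and had 75% or more of each metal's libraries beyond the other's median. The comparison, members and lists were chosen with earlier results of these data known. The alternatives were DESeq2's size factors, limma voom with sample quality weights, no filter on low counts, the DESeq2 Wald test, a single model of all libraries, another of the 5 groups of 3 months, glmQLFit with legacy=FALSE, counts thinned to the lowest total, the replicate number as a block, DU replicate 2 kept and each library left out. Chosen after seeing the data were the removal of genes abundant in the left-out library, library totals without TMM factors and the interaction fits without DU replicate 3.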

Additional observations from a re-analysis of the deposited data

Results flagged for a closer look

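In groups of 4 to 10 libraries, 6 of 18 sets of values had 1 library far from the others, where chance gives about 1 in 20. That rate holds for independent sets chosen blind. These sets overlapped, and some were genes picked for large fold changes, which single libraries can produce. The share is therefore a description and no test. DU replicate 3 at 3 months stood apart at 191 CPM for ENSRNOG00000006709, at 148 CPM for ENSRNOG00000018257 and at 1.44% of its counts in the 278 genes abundant in the left-out library. Ni replicate 4 stood apart at 620 CPM for ENSRNOG00000048402 and at 275 CPM for ENSRNOG00000049829. DU replicate 5 had a TMM factor of 0.722, where the group's median was 0.995 and its highest 1.07.

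The difference between DU and Ni changed between 1 and 3 months in 17 genes and between 3 and 6 months in 256, by the interaction term of edgeR. DU replicate 2, which no main comparison uses, had 41.9% of its counts in the 278 genes, against at most 0.116% in any library outside DU at 3 months.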

How the results depend on the processing

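For DU against Ni at 3 months (948 calls) DESeq2's size factors gave 985 (944 shared). The count was 690 without the filter (486 higher, 204 lower), 1058 with all libraries in 1 model (764 higher, 294 lower, 555 shared), 1067 with legacy=FALSE and 966 after thinning. It was 2096 with DESeq2 (947 shared), 1936 with limma voom with sample quality weights (892 shared), 247 with the 5 groups of 3 months in 1 model (180 higher, 67 lower), 0 with DU replicate 2 kept and 23 without TMM factors (8 higher, 15 lower). With single libraries left out it ran from 0 to 2340. At 1 month (0) it was 7 with DESeq2, 142 with all libraries and 0 to 2 with single libraries left out. At 6 months (0) it was 13 with DESeq2, 202 with limma voom and 0 to 66 with single libraries left out. Between 3 and 1 months (17) it was 95 with DESeq2, 0 with limma voom, 195 with all libraries and 0 with genes above a ratio of 16 removed. Between 3 and 6 months (256) it was 0 without the filter (4219 at an unadjusted p under 0.05), 1004 with DESeq2, 2192 with limma voom, 74 with all libraries, 84 with DU replicate 2 kept and 10 without DU replicate 3. For DU against Ta (744) it was 2083 with DESeq2, 4736 with limma voom, 1575 with all libraries, 0 with DU replicate 2 kept and 0 to 2587 with single libraries left out. For Ni against Ta (0) it was 6 with DESeq2 and 6 with all libraries. The cause of these shifts was not tested. No direction of the 4 named genes turned under any alternative that gave a value.

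Replicate numbers were shared between groups, but the deviations of same-numbered DU and Ni libraries at 3 months correlated at -0.13 to 0.01 over 7 pairs. None matched its own number best, so no pairing by number was seen between these 2 groups. Whether a number marks a shared batch or order of handling was not tested, nor was pairing with Ta. With the replicate block the counts were 1 for DU against Ni at 3 months, 0 at 1 and 6 months, 2 for either interaction and 1779 for DU against Ta. The block ended the call of ENSRNOG00000018257 (adjusted p 0.19), ENSRNOG00000048402 (0.243) and ENSRNOG00000049829 (0.20), and kept that of ENSRNOG00000006709 (0.0167), all by edgeR. The planned counts over gene lists and promoters were not run, since identifiers had no names here. Depth was at least 12674115 counts per library. The largest rises rested on 0 to 10 counts in each Ni library, so the size of their fold changes is loosely set.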
